A study of Mus musculus with 9 samples.

Results

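Cdkn1a, the gene of the cyclin-dependent kinase inhibitor p21, was followed across the cell types of the mouse kidney. It is 1 of the 32427 genes in the deposited matrices and was taken by its symbol. It was chosen for its levels in these data, so its levels, shares and fold changes are a description and carry no p-value. Tests are given only for other genes.

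Single-cell RNA libraries were made from the kidneys of 9 male C57BL/6 mice, 3 per group, which entered the study at 6 weeks of age. The Control group received saline by intraperitoneal injection. The AKI-CKD group, a model in which acute kidney injury (AKI) passes into chronic disease (CKD), received cisplatin at 8 mg/kg by weekly intraperitoneal injection for 4 weeks. The AKI-CKD + EGT group received the same cisplatin, and ergothioneine (EGT), a dietary antioxidant, at 0.5 mg/mL in the drinking water from 3 days before the first injection to the end. Kidneys were taken after 8 weeks. No group received EGT without cisplatin, so the effect of EGT alone cannot be read from these libraries. Each library came from a different mouse, so the tests below measure the spread between mice.

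p21 binds cyclin-dependent kinases and the replication clamp PCNA and holds cells before DNA synthesis. Its gene is the classical target of p53, which is activated by DNA damage, and it is also switched on without p53 by TGF-beta, FOXO, KLF and stress signals. Cisplatin is taken up by cells of the proximal tubule and crosslinks their DNA, and p21 is a long-known response gene of the cisplatin-treated kidney. Cells that keep p21 for long are often described as arrested or senescent.

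In the RefSeq annotation of build GRCm38.p6, Cdkn1a lies on the forward strand at chr17:29090979-29100722, a span of 9744 bases. The matrices were made on build GRCm39, so these positions belong to the annotation and not to the counts. RefSeq gives the gene a pair of start sites, and the 250 bases before each are printed because p53 targets are compared with Cdkn1a below. Capitals mark a 20-base p53 type element, built on CATGNNNNNNCATG, in the first window and GC boxes (GGGCGG or CCGCCC) in the second. The first window is chr17:29090729-29090978 and the second is chr17:29093519-29093768, both on the forward strand.
Cdkn1a start site 1: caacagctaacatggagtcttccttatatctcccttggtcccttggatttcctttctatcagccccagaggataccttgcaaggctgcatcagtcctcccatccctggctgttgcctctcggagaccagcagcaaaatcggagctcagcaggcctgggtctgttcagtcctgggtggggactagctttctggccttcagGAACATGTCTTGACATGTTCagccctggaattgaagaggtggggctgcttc
Cdkn1a start site 2: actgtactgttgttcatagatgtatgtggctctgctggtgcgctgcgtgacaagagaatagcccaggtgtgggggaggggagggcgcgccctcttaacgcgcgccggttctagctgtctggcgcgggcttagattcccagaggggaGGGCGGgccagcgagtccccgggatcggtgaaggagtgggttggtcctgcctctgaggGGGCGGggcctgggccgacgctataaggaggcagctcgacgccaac

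The element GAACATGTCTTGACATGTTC stood 51 to 32 bases before the first start site, at chr17:29090928-29090947. Its motif reads the same on both strands, and CATGNNNNNNCATG occurred in 234 of 32851 RefSeq promoter windows (0.712%). The GC boxes, which do not overlap it, stood 104 to 99 and 46 to 41 bases before the second start site, and a GC box occurred in 35.7% of the windows. Of the 45 other p53 targets listed, 35 had a window, 46 windows in all, and 0 of these held the motif, which says only that these letters were not there. The libraries were primed on poly(A) tails, so their counts cannot tell transcripts of the start sites apart.

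The matrices held 216680 barcodes, and 196925 cells passed the filters, which is more than the study kept. Library totals were 70106161 to 101525691 unique molecular identifiers (UMIs, the counted molecules). Cells were clustered anew and named from marker lists, so a cell can carry another name than in the study. The 14 named types included proximal tubule (PT, 153390 cells in 10 clusters), loop of Henle (LOH, 7332), distal convoluted tubule (DCT, 8318), connecting tubule (CNT, 4741), principal cells (PC, 2531), intercalated cells (IC, 1703) and thin limb (931). The other types were endothelial (3663), macrophage (1721), stroma (720), T (956), B (700), podocyte (634) and cycling cells (751), while 4 clusters with 8745 cells (4.44%) stayed unnamed. Among the unnamed, cluster 18 (1831 cells) was led by genes that include C1qa, C1qb and C1qc of the macrophage markers. Cluster 16 (2655 cells) was led by genes that include Atp6v0d2, Slc4a9 and Foxi1 of the IC markers. The macrophage and IC levels below leave these cells out. Each named cluster raised at least 3 of its own type's markers, and in the PT clusters this was 3 to 11 of 15.

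Cdkn1a was a sparse gene. The kept cells held 42506 of its UMIs, and 15637 cells (7.94%) had at least 1, with 88 in the cell that had most. Levels below are CPM, the Cdkn1a UMIs of the summed cells of a type in a mouse scaled to a total of 1000000 UMIs. Summed over all mice, unnamed cluster 18 had 46.0 CPM, against 321 and 442 CPM in the macrophage clusters. Unnamed cluster 16 had 19.4 CPM, against 76.7 CPM in IC cells. PT markers summed to 22835 and 22702 CPM in clusters 18 and 16, within the 22298 to 27265 CPM of the PT clusters. Individual mice stood apart across types: AKI-CKD mouse 2 was the highest of all mice in 10 of the 14 types, and Control mouse 3 was the lowest in 11. PT cells of Control mouse 3 also had the lowest median mitochondrial share of UMIs, 1.16%, against up to 6.59% in the other Control mice, 1.65% to 2.83% in AKI-CKD and 3.35% to 6.16% in AKI-CKD + EGT. The part of this difference in the Cdkn1a levels was not tested.

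In the control kidney, the highest mean levels of Cdkn1a were in endothelial cells, stroma and macrophages, and PT cells had the lowest mean. Endothelial cells averaged 621 ± 402 CPM (SD, n = 3 here and below), with 506, 1069 and 289 CPM in Control mice 1, 2 and 3. Stroma averaged 289 ± 205 CPM and macrophages 275 ± 110 CPM. Among tubule cells, thin limb (119 ± 87.5 CPM) and DCT cells (76.6 ± 30.9 CPM), which take up salt after the loop of Henle, had the most. IC cells, which secrete acid or base, averaged 38.1 ± 24.5 CPM, LOH cells 25.2 ± 6.06 CPM, PC cells 18.2 ± 4.86 CPM and CNT cells 14.0 ± 12.6 CPM. PT cells, which reabsorb most of the filtrate, had 9.87, 8.45 and 3.88 CPM, a mean of 7.40 ± 3.13 CPM.

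The mean levels of the Control group ran from endothelial through stroma, macrophage, thin limb, DCT, cycling, T, IC, LOH, PC, CNT, podocyte and B to PT cells. The ranges of every pair of neighbours in this order overlapped. Within each Control mouse the endothelial level was 51.3 to 126.5 times the PT level and the macrophage level 33.5 to 41.0 times. PT cells were last by their mean and not in every mouse: B cells were below them in Control mice 2 and 3, and podocytes and CNT cells in Control mouse 3. B cells and podocytes rested on few UMIs, and in Control mouse 3 neither had a Cdkn1a UMI, which allows up to 26.6 CPM in B cells and 59.1 CPM in podocytes (exact Poisson, 95%). These limits cover counting error only.

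**Figure D1:**
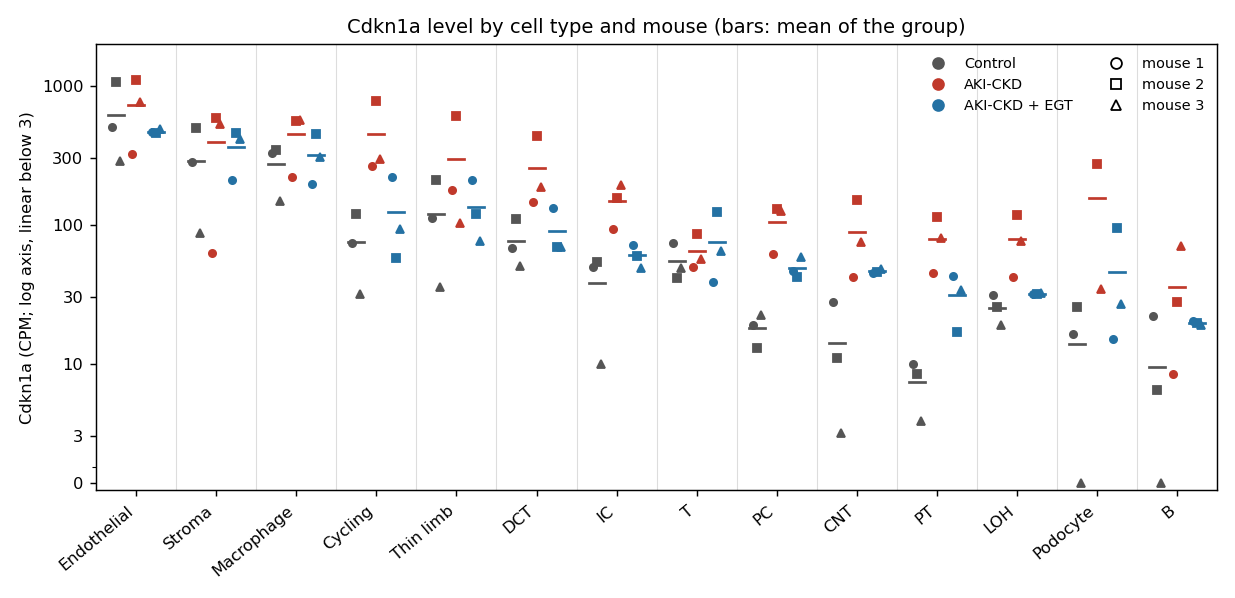
Cdkn1a level in CPM (log axis, linear below 3) for each named cell type, with a point for each mouse and a bar for the mean of each group. Endothelial cells lie at 289 to 1103 CPM, whereas the PT points of the Control mice, at 3.88 to 9.87 CPM, lie below all PT points of the cisplatin-treated mice, at 16.9 to 114 CPM. Podocytes of AKI-CKD mouse 1, with 18 cells, are not drawn.

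In AKI-CKD mice the PT level was 10.7-fold that of the Control mice. AKI-CKD mice 1, 2 and 3 had 44.9, 114 and 79.9 CPM in PT cells, a mean of 79.5 ± 34.4 CPM. The groups did not overlap, and the lowest AKI-CKD mouse stood above the highest Control mouse. In PT cells the mice of the groups did not overlap, with AKI-CKD higher, for 6.69% of the 17919 genes tested, and nothing is read from this beside Cdkn1a, which was chosen for its levels. The fitted log2 fold change was 3.53 ± 0.46 (SE, edgeR), the fourth highest of the PT genes (rank 4 of 17919). With each mouse left out in turn it lay between 3.21 and 3.83.

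The difference lay in both the share of PT cells with a Cdkn1a UMI and the UMIs in those cells. With every cell thinned to 1000 UMIs, the share of PT cells with a UMI was 0.84, 0.768 and 0.333% in Control mice 1, 2 and 3 and 3.19, 6.20 and 5.17% in AKI-CKD mice 1, 2 and 3. The group means were 0.647 ± 0.274% and 4.85 ± 1.53% after thinning, and 1.83% and 11.3% with all UMIs. Such cells held 1.18 ± 0.032 UMIs after thinning in the Control group and 1.41 ± 0.070 in the AKI-CKD group, and 1.51 and 2.65 with all UMIs. PT cells are therefore mostly at 0 UMIs in each group at this depth, where a cell with a low level is often not detected.

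B cells, which are not expected to express much Cdkn1a, are set beside the PT cells of the same mouse. Their thinned shares were 0.826, 0.559 and 0% in Control mice 1, 2 and 3, 0.718, 2.07 and 6.98% in AKI-CKD mice, and 2.08, 2.55 and 1.72% with EGT, from 39 to 167 cells and at most 13 Cdkn1a UMIs per mouse. The PT share stood above the B cell share of the same mouse except in AKI-CKD mouse 3 and AKI-CKD + EGT mouse 2, and by little in Control mouse 1. The B cell droplets held much PT RNA, as given below, so their share is not a background independent of the PT level. The 6.98% rested on 13 UMIs. Median depth was 1585 to 2851 UMIs in B cells and 2595 to 3318 in PT cells.

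**Figure D2:**
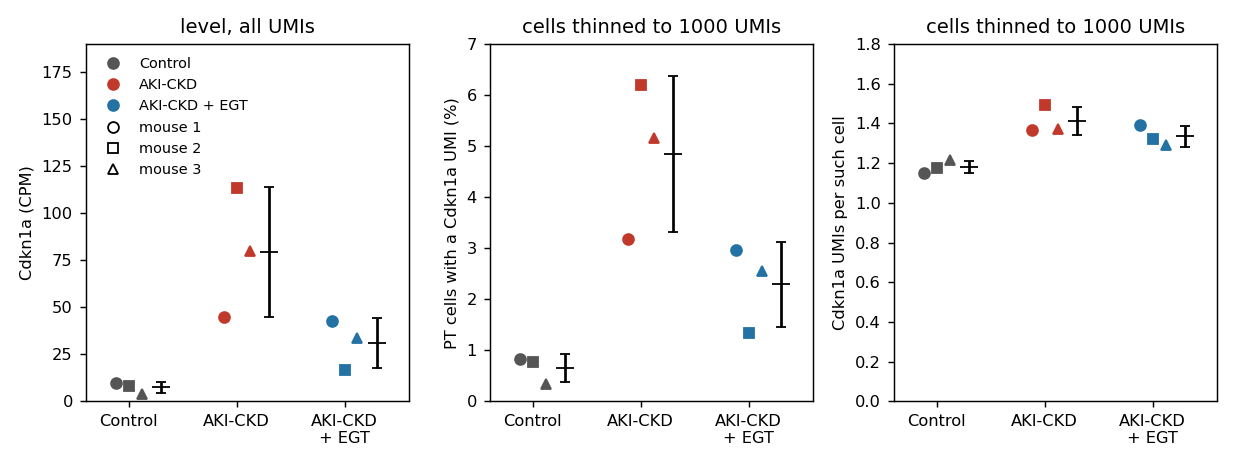
Cdkn1a in PT cells by group, with a point for each mouse and a bar for the mean: the level in CPM, the percentage of cells with a Cdkn1a UMI after thinning to 1000 UMIs per cell, and the UMIs per such cell. All panels place the AKI-CKD + EGT mice between the other groups on average, with 1.33 UMIs per positive cell against 1.18 in Control and 1.41 in AKI-CKD.

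The other tubule types stood in the same direction with smaller ratios. The ratio of the AKI-CKD to the Control mean was 6.37 in CNT, 5.78 in PC, 3.88 in IC, 3.35 in DCT, 3.12 in LOH and 2.49 in thin limb cells. AKI-CKD mice 1, 2 and 3 had 145, 437 and 187 CPM in DCT cells, against 68.3, 111 and 50.6 CPM in Control mice. In LOH cells, which build the salt gradient of the medulla, they had 42.1, 118 and 76.3 CPM against 31.0, 25.6 and 18.9 CPM. In PC cells, the cells of the collecting duct that respond to vasopressin, they had 62.0, 129 and 125 CPM against 19.1, 12.9 and 22.5 CPM.

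Without overlap between the groups were 6 of the 7 tubule types, thin limb being the exception, and 8 of all 14 types, which added cycling cells and podocytes (AKI-CKD mouse 1, with 18 podocytes, left out). With the expected PT free RNA taken off and the level rescaled to the other UMIs, as described below, LOH, CNT and podocytes overlapped. Podocytes of AKI-CKD mouse 3 then stood at 0 CPM. The AKI-CKD and Control means were 76.4 and 56.6 CPM in LOH and 96.2 and 27.8 CPM in CNT, which are smaller ratios than those above. The share of all genes that were higher without overlap was 9.66% in LOH, 6.91% in DCT, 8.85% in PC, 5.84% in CNT, 6.72% in IC and 4.98% in cycling cells, and it was not computed in podocytes. These types were measured in the same mice, so they are not independent repeats of the contrast. AKI-CKD mouse 1, the lowest of its group in these tubule types and in cycling cells, lay closest to Control: in LOH it stood at 42.1 CPM against a Control maximum of 31.0 CPM.

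Cycling cells, defined by genes of DNA replication and mitosis, had one of the highest levels in the AKI-CKD group. They held 266, 776 and 296 CPM in AKI-CKD mice 1, 2 and 3 against 74.3, 119 and 31.8 CPM in Control mice, a ratio of means of 5.94. Cells carrying the message of this cell cycle inhibitor were therefore found inside the cluster of cycling cells. The cluster was small, with 55 cells in the mouse that had fewest.

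Endothelial cells, stroma, macrophages and T cells, by contrast, had ratios of 1.17, 1.36, 1.64 and 1.18, and their groups overlapped. Endothelial cells of AKI-CKD mice 1, 2 and 3 had 321, 1103 and 758 CPM, against 506, 1069 and 289 CPM in Control mice. Macrophages had 221, 562 and 568 CPM against 331, 346 and 148 CPM, and stroma had 62.6, 583 and 535 CPM against 282, 497 and 87.1 CPM. The spread between mice of 1 group was wider here than the difference between groups. The fitted log2 fold changes were 0.25 ± 0.42 in endothelial cells, 0.41 ± 0.59 in stroma and 0.82 ± 0.37 in macrophages. The T cell result depends on free RNA from PT cells, described below. With it taken off and the level rescaled, T cells had 210, 93.1 and 114 CPM in Control mice and 55.5, 61.8 and 14.9 CPM in AKI-CKD mice. AKI-CKD was then lower without overlap. It was so by a small margin without the rescaling, with AKI-CKD mouse 2 at 32.7 CPM and Control mouse 2 at 36.3 CPM. These levels rested on 25, 13 and 10 Cdkn1a UMIs in Control mice 1, 2 and 3 and 11, 40 and 21 in AKI-CKD mice. Counting error was not carried through the subtraction. The expected level was itself estimated from B and T cells, and no share of all genes was computed after the subtraction.

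The ratio of the high types to PT cells of the same mouse was lower in AKI-CKD mice than in Control mice. Endothelial cells held 7.14 to 9.70 times the PT level in AKI-CKD mice, against 51.3 to 126.5 times in Control mice. Macrophages held 4.92 to 7.11 times the PT level, against 33.5 to 41.0 times. LOH cells had 0.938 to 1.04 times the PT level in AKI-CKD mice and 3.03 to 4.88 times in Control mice. These ratios set types of the same library side by side and are not corrected for free RNA. The LOH ratio depends on that correction: the LOH level of Control mice was 24.3, 20.5 and 16.6 CPM with the expected PT RNA subtracted, and 76.2, 52.5 and 41.0 CPM when also rescaled. Endothelial cells remained first in the order of AKI-CKD means (727 ± 391.9 CPM), followed by macrophages (450.3 ± 199 CPM) and cycling cells (446 ± 286 CPM), and PT cells moved from last to eleventh of the 14 types, with all neighbours overlapping.

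The endothelial clusters differed in AKI-CKD against Control by their means. The main cluster (cluster 15, 3334 cells), whose groups overlapped widely, averaged 653 CPM in Control mice, 810 CPM in AKI-CKD and 491 CPM in AKI-CKD + EGT mice. A smaller one (cluster 30, 329 cells), led by Emcn, Ehd3, Plat and Kdr, genes known in the endothelium of capillaries and glomeruli, had 399 and 407 CPM in Control mice 1 and 2 and 247, 317 and 212 CPM in AKI-CKD mice. The AKI-CKD mean was 0.643 of the Control mean, without overlap between 2 Control and 3 AKI-CKD mice. Over all endothelial cells, with 3 mice on each side, 8.05% of all genes were lower without overlap, a share that is not matched to fewer mice. Control mouse 3, with 15 cells at 195 CPM in that cluster, was left out of the means because it held under 20 cells, and would end the separation from the AKI-CKD mice. With EGT both clusters had lower means than in AKI-CKD mice, 0.607 of it in cluster 15, with overlap, and 0.646 in cluster 30, where AKI-CKD + EGT mice 1 and 3 had 177 and 158 CPM and mouse 2, with 17 cells, was left out.

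With EGT, the PT level was 0.392 of the AKI-CKD mean. AKI-CKD + EGT mice 1, 2 and 3 had 42.9, 16.9 and 33.7 CPM in PT cells, a mean of 31.2 ± 13.2 CPM. The highest of them stood just below the lowest AKI-CKD mouse, at 44.9 CPM, so the groups did not overlap but by a small margin. In PT cells 2.6% of the genes tested were lower without overlap. The fitted log2 fold change was -1.58 ± 0.43, and it ran from -1.97 to -1.26 with each mouse left out in turn. Both comparisons with the AKI-CKD group rest on the same AKI-CKD mice, so a mouse that stands apart there moves both.

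The EGT-treated PT cells were still above Control. Their mean was 4.21 times the Control mean, and their lowest mouse, at 16.9 CPM, stood above the highest Control mouse, at 9.87 CPM. In this comparison 9.75% of the genes tested in PT cells were higher without overlap. The thinned share of PT cells with a UMI was 2.96, 1.35 and 2.56% in AKI-CKD + EGT mice 1, 2 and 3, a mean of 2.29 ± 0.839%, and 5.84% with all UMIs. The comparisons with Control share the Control mice, so the 2 ratios of cisplatin groups to Control are set side by side and not compared by a test.

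In other types the AKI-CKD + EGT mean was below the AKI-CKD mean in all but T cells. It was 0.28 of it in cycling cells, 0.35 in DCT, 0.404 in LOH, 0.407 in IC, 0.465 in PC, 0.518 in CNT and 0.457 in thin limb cells. The groups did not overlap in 5 of the 7 tubule types (PT, LOH, DCT, PC and IC) and in cycling cells, 6 of all 14 types. The share of all genes lower without overlap was 7.41% in LOH, 4.4% in DCT, 8.72% in PC, 9.46% in IC and 4.51% in cycling cells. With PT free RNA taken off and the level rescaled, LOH overlapped, with AKI-CKD mouse 1 at 38.2 CPM and AKI-CKD + EGT mouse 2 at 50.7 CPM. LOH also overlapped without the rescaling. PC overlapped only without the rescaling, with AKI-CKD mouse 1 at 35.9 CPM and AKI-CKD + EGT mouse 3 at 40.7 CPM. DCT cells had 132, 69.6 and 69.2 CPM in AKI-CKD + EGT mice 1, 2 and 3, which overlaps the Control range of 50.6 to 111 CPM.

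LOH cells of these mice lay close together, at 31.8, 31.5 and 32.1 CPM, just above the highest Control mouse at 31.0 CPM. With PT free RNA taken off the direction turned, with overlap, to a mean of 34.2 CPM against 56.6 CPM in Control, and 15.9 against 20.5 CPM without the rescaling. Against Control, 4 of the 7 tubule types and 4 of all 14 types did not overlap, namely PT, LOH, PC and CNT, beside 7.69% of all genes higher without overlap in LOH, 3.54% in PC and 5.6% in CNT. The ratios to Control were 1.26 in LOH, 2.69 in PC and 3.30 in CNT. After the subtraction CNT of AKI-CKD + EGT mice overlapped Control with the rescaling, and without it did not. Endothelial cells had 462, 454 and 488 CPM and macrophages 198, 446 and 308 CPM, each within the range of the AKI-CKD mice or overlapping it. T cells had 38.7, 124 and 64.4 CPM, and EGT mouse 2 was the highest of all 9 mice there.

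Within PT cells, the early segment S1, which carries most glucose and amino acid uptake, had more Cdkn1a than the later segments S2 and S3 in the group means. In clusters with S1 markers, Control mice 1, 2 and 3 had 12.1, 11.7 and 5.70 CPM, AKI-CKD mice 55.6, 144 and 112 CPM and AKI-CKD + EGT mice 60.7, 27.1 and 43.7 CPM. In clusters with S2 or S3 markers the values were 8.92, 7.11 and 2.75 CPM, 41.4, 110 and 71.5 CPM, and 30.7, 9.60 and 24.9 CPM. The AKI-CKD mean was 10.5 times the Control mean in S1, 11.9 times in S2 and S3 and 8.43 times in the clusters of no clear segment, without overlap in each. The AKI-CKD + EGT mean was 0.422 of the AKI-CKD mean in S1, where the mice overlapped, and 0.292 in S2 and S3 and 0.542 in the rest, where they did not. Single clusters did not all follow the segments. Summed over all mice, S1 clusters 2, 8 and 4 had 41.2, 43.3 and 69.7 CPM. S2 or S3 clusters 3, 6, 9 and 10 had 15.2, 22.6, 30.2 and 53.1 CPM.

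Each of the 10 PT clusters had AKI-CKD mice above all Control mice, with ratios of means from 6.40 to 14.4. The AKI-CKD + EGT mice lay below all AKI-CKD mice in 6 of the 10 and above all Control mice in 8. Over all 10 clusters the ratios of the AKI-CKD + EGT mean ran from 0.255 to 0.659 against AKI-CKD and from 3.12 to 6.43 against Control. Cluster 4 (16461 cells), an S1 cluster led by Cxcl10, Slc34a3, Gdf15, Cxcl1 and Hmox1, which include chemokines and a stress-response enzyme, had 67.0, 176 and 148 CPM in AKI-CKD mice 1, 2 and 3. Its AKI-CKD + EGT mice had 81.6, 29.0 and 55.7 CPM and overlapped them.

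Cluster 10 (11770 cells), an S2 cluster led by Osgin1, Angptl4, Ccn1 and Gdf15, had the largest ratio, 14.4. Its values were 12.4, 8.73 and 3.90 CPM in Control mice, 66.6, 190 and 105 CPM in AKI-CKD mice and 41.7, 14.5 and 36.0 CPM in AKI-CKD + EGT mice. Cluster 3 (17130 cells), led by Cyp2a4, Slco1a1 and Slc7a13, genes of the late proximal tubule, had the lowest levels, 4.71, 5.11 and 1.63 CPM in Control mice and 16.7, 38.4 and 38.0 CPM in AKI-CKD mice. The higher PT level was thus counted in each PT cluster. From free PT RNA, described below, 26.1, 53.6 and 51.7 CPM were expected in other droplets of AKI-CKD mice 1, 2 and 3. The cluster 3 levels of these mice lay below this. Free RNA was not taken off within PT cells, so its part in the spread over the clusters was not tested. The clusters were formed with Cdkn1a and the gene lists below kept out of the variable genes, except for list members that were also cell type markers. Spp1 and Krt8 of the injury list were such markers.

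**Figure D3:**
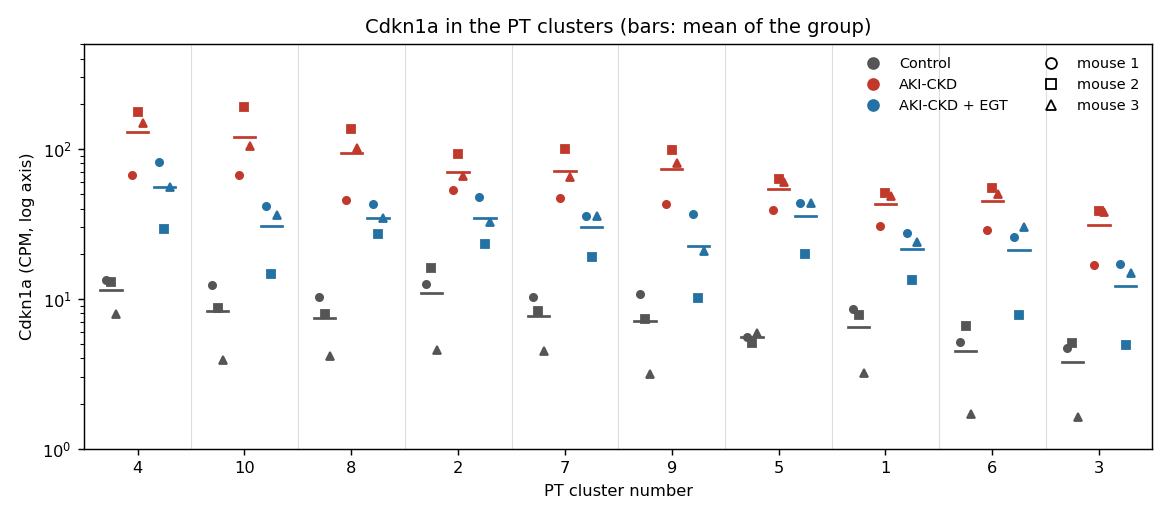
Cdkn1a level in CPM (log axis) in each PT cluster, with a point for each mouse and a bar for the mean of each group, ordered from the highest to the lowest mean. In each cluster the 3 AKI-CKD points lie above the 3 Control points, and the ratio of the means is 6.40 to 14.4.

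PT cells took a larger part of the kidney's Cdkn1a in AKI-CKD than in Control. They held 26.6 ± 6.498% of a library's Cdkn1a UMIs in Control mice (19.4 to 31.9%), 68.2 ± 9.99% in AKI-CKD mice (56.7 to 74.6%) and 43.9 ± 17.2% in AKI-CKD + EGT mice (31.8 to 63.5%). The share of kept cells that were PT cells was 78.6, 85.2 and 67.8%. Endothelial cells, 1.66, 1.70 and 2.37% of the cells, held 37.5, 11.4 and 20.7% of the Cdkn1a UMIs in these groups. Cell shares after dissociation and sequencing need not be those of the tissue.

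Over all kept cells the level was 28.0, 36.3 and 10.3 CPM in Control mice, 54.1, 163.5 and 95.5 CPM in AKI-CKD mice and 56.7, 40.4 and 57.8 CPM in AKI-CKD + EGT mice. With every mouse given the same cell type shares, the values were 28.0, 40.05 and 13.8 CPM, 57.9, 158 and 105.5 CPM, and 57.9, 35.9 and 48.9 CPM. The whole-kidney level of AKI-CKD mouse 1, at 54.1 CPM, was below that of AKI-CKD + EGT mice 1 and 3, although its PT level was above theirs. The order of mice in the mixed cells therefore differed from the order in PT cells.

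Free RNA from PT cells was abundant in the other droplets. PT markers in B and T cells reached 47.1 to 68.1% of their level in PT cells. Against the Cdkn1a that this free RNA would bring, the observed level was 12.3 to 207 times as high in endothelial cells, 8.48 to 67.1 times in macrophages, 3.62 to 22.0 times in DCT cells and 5.33 to 23.1 times in cycling cells. It was 1.48 to 8.22 times as high in LOH, 2.26 to 9.77 times in PC and 1.38 to 4.81 times in CNT cells, above 1 in 9 of 9 mice in each, and 0 to 3.29 times in B cells, above 1 in 5 of 9. In some mice the level expected from PT RNA was thus a large part of that observed in LOH, CNT and B cells.

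The expected PT level was then subtracted in each type, with the PT share of B and T cells applied to all types, and the rest was divided by the share of UMIs that was not of PT origin. The result can therefore exceed the level before subtraction. This left 76.2, 52.5 and 41.0 CPM in LOH cells of Control mice, 38.2, 121 and 69.6 CPM in AKI-CKD mice and 21.5, 50.7 and 30.3 CPM in AKI-CKD + EGT mice, so the LOH groups then overlapped and the AKI-CKD + EGT mean lay below the Control mean. In DCT cells it left 193, 271 and 119 CPM, 284, 726 and 383 CPM, and 214, 139 and 107 CPM, and AKI-CKD mice stayed above all Control mice. In PC cells it left 38.9, 19.9 and 49.7 CPM in Control mice and 85.6, 142 and 206 CPM in AKI-CKD mice, also without overlap. In CNT cells it left 66.3, 15.1 and 2.18 CPM and 38.3, 182 and 68.0 CPM, which overlapped. An alternative without the division was chosen after seeing the data. Of the types without overlap before subtraction in AKI-CKD against Control, LOH, CNT and podocytes then overlapped both with and without the division. DCT, PC, IC and cycling cells did not overlap either way. PT marker levels differed between types, so the share of B and T cells was not that of every type. Summed over the mice, PT markers stood at 15025 CPM in B and 13120 CPM in T cells. They stood at 9380 CPM in PC, 9527 CPM in IC, 18347 CPM in podocytes and 19565 CPM in cycling cells. The part of this difference in the overlaps was not tested. T cells, which overlapped before the subtraction, were lower in AKI-CKD mice without overlap either way, by a small margin without the division. They held few Cdkn1a UMIs and were themselves used to estimate the expected level.

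For PT cells the reverse was computed, from the markers of the high types found in PT cells. Endothelial, macrophage and stroma RNA would bring 14.997 to 34.2% of the PT Cdkn1a level in Control mice, 1.55 to 2.78% in AKI-CKD mice and 2.39 to 14.5% in AKI-CKD + EGT mice. Endothelial markers summed to 7.44 to 9.34 CPM in PT cells of Control mice, 6.07 to 12.8 CPM in AKI-CKD and 11.2 to 14.1 CPM in AKI-CKD + EGT mice. Immediate early genes, which dissociation can raise, summed to 1270 to 3194 CPM, 1741 to 3388 CPM and 1665 to 3607 CPM. Tubule injury genes summed to 1419 to 1593 CPM, 1798 to 2040 CPM and 1562 to 2423 CPM in the same order. Most of this injury sum was Igfbp7 and Spp1, whose AKI-CKD means were 1362 and 419 CPM, against Control means of 1134 and 255 CPM. Of the 12 injury genes tested, only these were higher in AKI-CKD without overlap, and 0 were lower. Others, such as Cd24a, Clu, Sox9 and Krt18, had lower means there than in Control. AKI-CKD mouse 2 had the most Cdkn1a and the most immediate early RNA of its group. Malat1, a nuclear RNA, stood at 4598 and 2723 CPM in PT cells of AKI-CKD mice 2 and 3, which had the most Cdkn1a, against 8976 CPM in AKI-CKD mouse 1, 7619 to 9434 CPM in Control mice and 6378 to 14462 CPM in AKI-CKD + EGT mice. The part of these differences in the Cdkn1a levels was not tested.

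The other targets of p53 were then examined in PT cells, where 44 of the 45 passed the filter on low counts. Against the Control group 4 of them rose in AKI-CKD mice and 0 fell at an adjusted p under 0.05 (edgeR's quasi-likelihood test, Benjamini-Hochberg over 17919 genes), against 7 of all genes higher (0.0391%) and 1 lower (0.00558%). The 4 were Phlda3, which blocks AKT at the membrane, Ephx1, an epoxide hydrolase of detoxification, Eda2r, a receptor of the TNF receptor family, and Psrc1, a spindle protein. Before adjustment 17 of the 44 had p under 0.05 and were higher, against 4.91% of all genes. The median log2 fold change of the list was 0.38 and that of all genes -0.013, and 37 of 44 were positive.

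The calls rested on small numbers of mice. With Control mouse 2 left out, 0 of the list passed, with Control mouse 3 or AKI-CKD mouse 2 left out 1 passed, and with AKI-CKD mouse 1 or 3 left out 2 passed. DESeq2 called 12. Over all PT genes DESeq2 called 82 higher and 110 lower, so the balance of directions depends on the method. The list was chosen with results of these data known and is not independent support for Cdkn1a.

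Phlda3 had 2.55, 1.27 and 1.20 CPM in PT cells of Control mice 1, 2 and 3, 8.45, 17.9 and 17.1 CPM in AKI-CKD mice and 4.66, 3.28 and 5.24 CPM in AKI-CKD + EGT mice. The 3 groups did not overlap. Its log2 fold change was 3.24 ± 0.35 in AKI-CKD against Control (adjusted p = 0.0103, edgeR).

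Ephx1 had 1.52, 1.06 and 0.924 CPM in Control mice, 6.61, 10.2 and 13.1 CPM in AKI-CKD and 4.80, 3.51 and 4.08 CPM in AKI-CKD + EGT mice. Its log2 fold change was 3.21 ± 0.29 (adjusted p = 0.0059, edgeR). Eda2r stood at 0.215 CPM or less in Control mice, at 0.781, 1.04 and 1.13 CPM in AKI-CKD mice and at 0.337 to 0.451 CPM in AKI-CKD + EGT mice, with a log2 fold change of 3.31 ± 0.47 (adjusted p = 0.0478, edgeR). Psrc1 had 0.185 to 0.276 CPM in Control mice, 1.03 to 1.41 CPM in AKI-CKD and 0.451 to 1.00 CPM in AKI-CKD + EGT mice, with a log2 fold change of 2.47 ± 0.32 (adjusted p = 0.0300, edgeR). Each of these genes had its mice in the order Control, AKI-CKD + EGT, AKI-CKD without overlap, an order also seen for Cdkn1a. The genes are shown because they were called higher in AKI-CKD, and both comparisons share the AKI-CKD mice. The share of all genes in this order was not computed, so nothing is read from it.

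Other members of the list, known for growth arrest, feedback on p53 or cell death, did not pass. Ccng1, a cyclin that acts on Mdm2, had 33.5, 29.8 and 42.5 CPM in Control mice and 58.3, 60.5 and 73.6 CPM in AKI-CKD mice (log2 fold change 0.96 ± 0.21, adjusted p = 0.229, edgeR). Mdm2, the ubiquitin ligase that degrades p53, had 28.4, 21.3 and 23.1 CPM and 24.4, 31.0 and 27.4 CPM (0.29 ± 0.12, adjusted p = 0.437, edgeR). Plk2, a stress kinase, had 6.90, 5.03 and 1.38 CPM and 8.04, 36.5 and 25.4 CPM (2.51 ± 0.58, adjusted p = 0.245, edgeR). Mdm2 overlapped between the groups, whereas Ccng1 and, by a small margin, Plk2 did not.

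**Figure D4:**
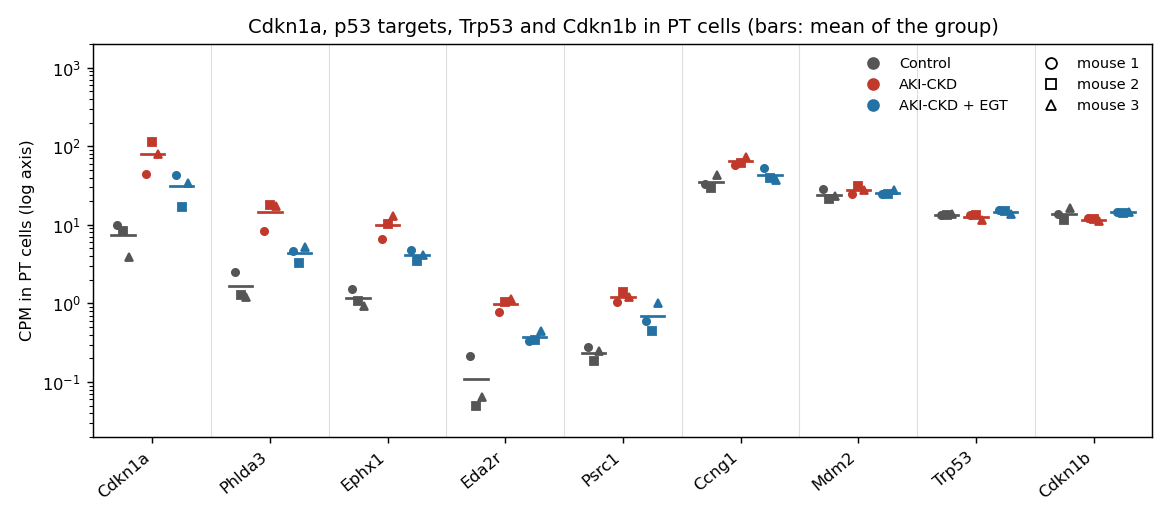
CPM in PT cells (log axis) of Cdkn1a, of p53 targets and of Trp53 and Cdkn1b, with a point for each mouse and a bar for the mean of each group. Cdkn1a, Phlda3, Ephx1, Eda2r and Psrc1 show AKI-CKD above AKI-CKD + EGT above Control without overlap, and Trp53 lies at 11.7 to 15.3 CPM in all mice. The share of all genes in this order was not computed.

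With EGT against AKI-CKD, 0 of the 44 targets passed the adjusted threshold in PT cells, as did 0 of all 17919 genes (edgeR), of which 1599 were higher and 1120 lower (6.25%) at an unadjusted p under 0.05, and DESeq2 called 291 higher and 134 lower. At that unadjusted threshold 17 of the 44 were lower, and DESeq2 called 6 of them lower. The median log2 fold change of the list was -0.34, and 7 of 44 were positive. Phlda3 had -1.97 ± 0.33 and Ephx1 -1.50 ± 0.27 (adjusted p = 0.212 for both, edgeR), and Eda2r had -1.62 ± 0.42 (adjusted p = 0.218, edgeR). Lower without overlap were 9 of the 44, namely Phlda3, Eda2r, Ccng1, Zmat3, Rrm2b, Ephx1, Psrc1, Rps27l and Trp53cor1, and Tigar was higher without overlap, against 2.6% of all genes lower and 23.1% higher.

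For AKI-CKD + EGT against Control 0 of the 44 passed (edgeR), while 8 were higher and 2 lower at an unadjusted p under 0.05, against 3.14 and 3.99% of all genes, and DESeq2 called 3 higher. The median of the list was 0.16, with 29 positive. Without overlap 9 were higher and 2 lower, against 9.75 and 2.07% of all genes. The scale of the comparisons matters here: plain CPM moved the median gene by -0.11, 0.22 and 0.13 on the log2 scale in AKI-CKD against Control, AKI-CKD + EGT against AKI-CKD and AKI-CKD + EGT against Control. The Cdkn1a ratios on that scale were 3.43, -1.35 and 2.07.

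The message of p53 itself differed little between AKI-CKD and Control mice. Trp53 stood at 13.2, 13.3 and 13.7 CPM in PT cells of Control mice, 13.2, 13.2 and 11.7 CPM in AKI-CKD mice and 15.3, 14.995 and 13.8 CPM in AKI-CKD + EGT mice (AKI-CKD against Control 0.01 ± 0.13 log2, adjusted p = 0.987, edgeR). In CPM the AKI-CKD + EGT mice lay above both other groups without overlap, as did 23.1% of all genes against AKI-CKD and 9.75% against Control. The fitted log2 fold changes there were -0.004 ± 0.13 and 0.004 ± 0.13. p53 is mainly controlled as a protein, which these data do not hold. Of the 12 p53 regulators 0 passed, and their median was -0.06.

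Nor did the relatives of Cdkn1a pass the test in PT cells. Cdkn1b, which encodes p27, had 13.6, 11.7 and 16.1 CPM in Control mice, 12.1, 11.8 and 11.2 CPM in AKI-CKD and 14.6, 14.1 and 14.7 CPM in AKI-CKD + EGT mice (AKI-CKD against Control -0.15 ± 0.13, adjusted p = 0.659, edgeR). Cdkn1c, which encodes p57, had 1.40, 1.42 and 0.625 CPM in Control mice, 0.567, 0.954 and 0.442 CPM in AKI-CKD and 1.31, 1.35 and 4.69 CPM in AKI-CKD + EGT mice (-0.73 ± 0.49, adjusted p = 0.567, edgeR). Against AKI-CKD the EGT group had 1.62 ± 0.50 for Cdkn1c (adjusted p = 0.233, edgeR), with AKI-CKD + EGT mouse 3 far above the others. In PT cells AKI-CKD mice lay above all Control mice for Cdkn1a, which was chosen for its levels, and not for Cdkn1b or Cdkn1c. Only 6.69% of the 17919 genes tested were higher without overlap, so nothing is read from this about the family.

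The senescence-linked INK4 genes Cdkn2a and Cdkn2b were too low in PT cells to be tested, at no more than 0.0521 and 0.326 CPM in any mouse. Cdkn2c lay at 11.3 to 18.3 CPM and Cdkn2d at 3.64 to 6.77 CPM, and neither passed. Of 11 partners of p21 (cyclins, kinases and PCNA), 19 other known regulators of Cdkn1a, 12 tubule injury genes and 15 immediate early genes, 0 passed in AKI-CKD against Control, with medians of 0.04, -0.04, -0.02 and 0.17. Of all 17919 genes 7 passed as higher and 1 as lower. At an unadjusted p under 0.05, 1 of the partners and 1 of the injury genes were higher and 1 of each lower, 1 of the p53 regulators was higher, and 0 of the other regulators and of the immediate early genes. Over all genes 4.91% were higher at that threshold, and the share lower is not given here. With lists this short, nothing is read from these counts about their members. DESeq2 also called 0 of each of these lists.

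The same p53 list was read in the other types of cell, where fewer members could be tested. In LOH cells Phlda3 rose from 2.56, 1.51 and 1.148 CPM in Control mice to 9.85, 15.1 and 13.8 CPM in AKI-CKD mice (2.80 ± 0.45, adjusted p = 0.0311, edgeR), 1 of 2 genes called higher there (0.0191%). In PC cells Phlda3 rose from 2.39, 2.59 and 0 CPM to 21.8, 21.7 and 45.1 CPM (3.94 ± 0.61, adjusted p = 0.0496, edgeR), also 1 of 2 called higher (0.0221%). Ephx1 fell in LOH cells with EGT (-1.18 ± 0.23, adjusted p = 0.0385, edgeR), among 16 genes called lower (0.153%). Hspa1a, a heat shock gene of the immediate early list, also fell there (-1.45 ± 0.29, adjusted p = 0.0385, edgeR). In IC cells with EGT, Clu of the injury list (-1.67 ± 0.37), Hspa1a (-1.44 ± 0.36) and Hspa1b (-1.55 ± 0.38) fell (adjusted p = 0.0377, 0.0416 and 0.0406, edgeR), among 56 genes called lower (0.713%). These tubule cells carry PT RNA, which holds Phlda3 and Ephx1 too, and its part in these changes was not tested.

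In the remaining types 0 of the list passed in AKI-CKD against Control (edgeR). Higher at an unadjusted p under 0.05 were 10 of 34 tested in DCT cells, 8 of 26 in CNT, 8 of 19 in cycling cells, 3 of 22 in IC, 6 of 34 in endothelial cells and 6 of 23 in macrophages. Over all genes these shares were 4.3, 3.76, 2.26, 3.96, 4.98 and 3.14%. The medians ran from 0.09 in IC to 0.60 in cycling cells. In thin limb cells Sesn1, a stress-response gene, rose with EGT against AKI-CKD (3.01 ± 0.58, adjusted p = 0.0193, edgeR), 1 of 106 genes called higher there (1.84%).

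Across types the relatives were distributed unlike Cdkn1a. Cdkn1c averaged 807 CPM over the mice in podocytes, where p57 is a known marker, against 26.6 CPM in endothelial cells, 24.5 CPM in stroma and 1.42 CPM in PT cells. Cdkn1b ranged only from 13.3 CPM in PT to 32.75 CPM in PC cells, and Trp53 from 12.2 CPM in CNT to 36.8 CPM in T cells. Phlda3 ran from 1.56 CPM in B cells to 37.8 CPM in thin limb cells, with 6.85 CPM in PT cells. These CPM are compared within a gene across types, not between genes.

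Among the 8 genes most like Cdkn1a across the 14 types were Tnfrsf1a, Map7d1, Fabp5, Pdgfb, Mapk3, Lgals3bp and Clic4. Likeness was the root mean square difference of mean-centred log2 CPM over the type means, and it ran from 0.71 for Tnfrsf1a and 0.73 for Map7d1 to 0.89 for Clic4, against a median of 1.39 over 8920 genes and an SD of 1.40 for Cdkn1a itself. The type means share libraries and free RNA. The closest gene therefore still differed from Cdkn1a by about 0.71 on the log2 scale at a typical type.

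Over the 9 mice in PT cells the closest genes were Plk2 (0.64), Cox6b2 (0.83), Gdf15 (0.91), Gm53 (0.91), Gm42047 (0.92), Snhg15 (0.95), Ier5 (1.00) and Mgmt (1.01). The median of 7419 genes was 1.46 and the SD of Cdkn1a 1.52. Plk2 is a stress kinase, Ier5 an early response gene and Mgmt an enzyme of DNA repair. Gdf15, a secreted stress cytokine, had 135, 44.6 and 27.8 CPM in Control mice, 83.7, 210 and 132 CPM in AKI-CKD and 111, 76.6 and 102 CPM in AKI-CKD + EGT mice, which overlapped.

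Which genes were detected in the same PT cells as Cdkn1a was examined in each mouse. Cells were thinned to 1000 UMIs, and a gene's level in cells with a Cdkn1a UMI was divided by that expected from the clusters of those cells. A ratio of 1 means that the gene was as frequent as in the other cells of the same mouse and cluster. There were 55 to 171 such cells in Control mice, 665 to 1050 in AKI-CKD mice and 213 to 399 in AKI-CKD + EGT mice. Of 7150 genes in at least 1% of PT cells, 46 (0.643%) were above 1 in all 9 mice and 30 were below.

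Among these 46 genes the highest median ratios belonged to Gdf15 (2.61, from 2.15 to 5.21 over the mice), Trp53inp1 (2.23, 1.57 to 4.31), Cplane1 (2.09, 1.252 to 3.32), Ccng1 (2.01, 1.252 to 3.33), Mdm2 (1.94, 1.04 to 5.03) and Pmaip1 (1.77, 1.14 to 2.75). Dglucy (1.46), Eftud2 (1.43), Serpinb6a (1.41) and Hspa1b (1.40) followed among the 46. Genes that were not above 1 in every mouse could have higher medians, such as Btg2 (2.05, above 1 in 8 of 9 mice), named after its value was seen. Gdf15, Trp53inp1, Ccng1, Mdm2 and Pmaip1, the last a promoter of apoptosis, are in the p53 list, and they were ranked with all other genes that met this condition. Several of these ratios rested on few UMIs, at high and low ranks: Cplane1, Pmaip1, Serpinb6a and Hspa1b had 1 UMI in the positive cells of the mouse with fewest.

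By list, 6 of 18 p53 targets measured this way were above 1 in all mice (Mdm2, Ccng1, Pmaip1, Trp53inp1, Gdf15 and Rps27l), with a median ratio of 1.31. Of the immediate early genes 4 of 14 were (Fos, Jun, Jund and Hspa1b), with a median of 1.252. Of 15 PT markers 0 were, with a median of 0.958, and 0 of 5 p53 regulators, 4 partners of p21, 14 other regulators of Cdkn1a and 4 injury genes. Summed endothelial markers were above 1 in 6 of 9 mice (0 to 2.27), macrophage markers in 5 of 9 (0 to 1.69), stroma markers in 6 of 9 (0 to 2.77) and PT markers in 1 of 9 (0.934 to 1.01). The part of droplets that held a PT cell and another cell in these ratios was not tested.

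**Figure D5:**
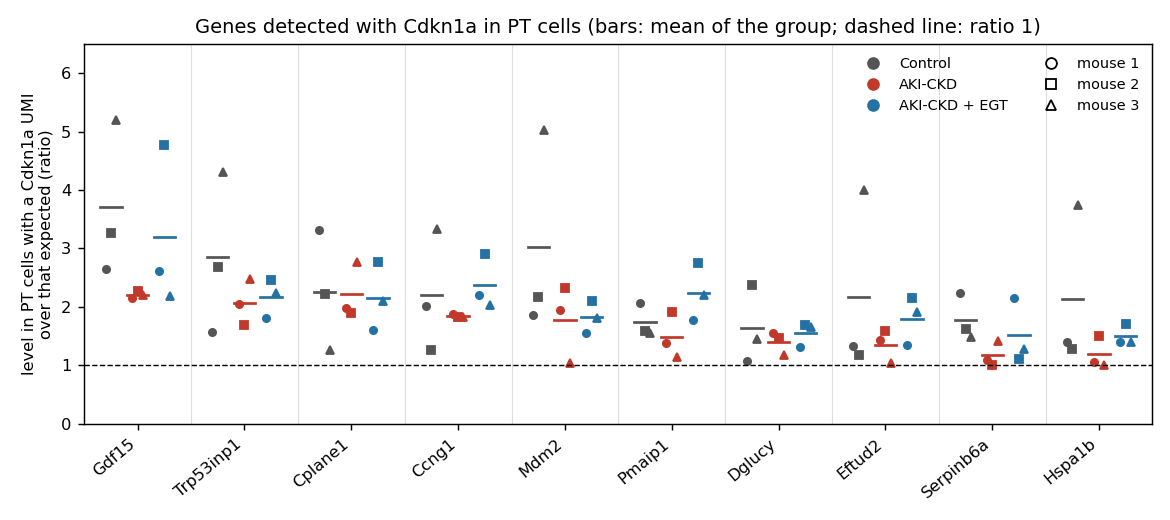
Ratio of a gene's level in PT cells with a Cdkn1a UMI to the level expected within mouse and cluster, for the 10 genes with the highest median among the 46 above 1 in all 9 mice, with a point for each mouse, a bar for the mean of each group and a dashed line at 1. Gdf15 stands at 2.15 or more in all 9 mice, whereas Serpinb6a and Hspa1b touch 1.00 in at least 1 mouse, and Control mouse 3, with 55 positive cells, holds many of the highest points.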

How the data were processed

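Droplet libraries of 9 mouse kidneys were used. Per the file headers, the authors made the deposited counts, raw UMIs per gene and barcode, with PISA 1.0 and did not normalize them. The submitters' processing notes name GRCm39. The aligner, annotation and strand setting are not given in the sources used here. Cells with at least 1000 UMIs, 500 genes and at most 15% mitochondrial UMIs were kept. Counts were log-normalized and 2000 variable genes were chosen in scanpy 1.11.5, without Cdkn1a and without list members that were not cell type markers. These gave 30 components, corrected over libraries by a re-coded Harmony. Cells were clustered with the Leiden method of igraph on a graph of shared neighbours (20 neighbours, resolution 1.1). A cluster of at least 50 cells took a type's name with at least 3 markers raised 2-fold, by a scoring rule set after the clusters were seen. Scrublet's own calls (0 to 2 cells in 8 libraries, 3921 in the other) were not used, so doublets were left in. Groups were taken from the labels.

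UMIs were summed per mouse and type, for types with at least 20 cells. edgeR 4.0.16 (R 4.3.3) with its filter, TMM and the quasi-likelihood test was fitted to all 9 mice, and DESeq2 1.42.0 was an alternative. Calls are at an adjusted p under 0.05 (Benjamini-Hochberg over all genes tested). On simulated PT counts (AKI-CKD against Control, 17919 genes) 96 of 200 genes changed by a log2 fold of 1 and 164 of 200 changed by 2 were recovered, with 4 and 8 false calls. Named genes were the Cip/Kip family, Trp53, Mdm2, Phlda3 and Ccng1, up to 8 called members of each list, the 8 genes closest to Cdkn1a over types and over mice with at least 10 CPM, and the 10 highest in co-detection among genes above 1 in all mice. A gene that this rule names over types is not reported here. The Cdkn2 genes and the members named for their overlap between groups or in other types were named after their values were seen. Members and lists were chosen with earlier results of these data known. Alternatives changed the tool, filter, library sizes, mice, block, mitochondrial limit, Harmony, variable genes, doublets and free RNA.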

Additional observations from a re-analysis of the deposited data

Results flagged for a closer look

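Cdkn1a was also present in barcodes over the mitochondrial limit, which the comparisons do not use, above the level of the Control mice there. Those barcodes held 19.1, 16.3 and 20.98 CPM in Control mice 1, 2 and 3 (4700, 1267 and 225 barcodes), 30.2, 62.7 and 63.6 CPM in AKI-CKD mice (1120, 981 and 441) and 33.5, 34.2 and 37.8 CPM in AKI-CKD + EGT mice (945, 1875 and 6598). The lowest AKI-CKD mouse, at 30.2 CPM, and the lowest AKI-CKD + EGT mouse, at 33.5 CPM, each stood above the highest Control mouse. The barcodes were not sorted by cell type.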

How the results depend on the processing

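The Cdkn1a fold changes in PT cells kept their direction under all 21 alternatives, at 3.19 to 3.83 log2 for AKI-CKD against Control, -1.97 to -1.17 for AKI-CKD + EGT against AKI-CKD and 1.56 to 2.40 for AKI-CKD + EGT against Control. Taking off the Cdkn1a expected from endothelial, macrophage and stroma RNA, an alternative chosen after seeing the data, was among them. The subtraction based on PT genes in B and T cells could not be run for PT cells, the source of that RNA. The count of p53 targets called higher in PT cells, 4 in AKI-CKD against Control, was 10 with no filter on low counts, 12 with DESeq2 and 2 with no Harmony, and ranged from 0 to 3 with each mouse left out. In AKI-CKD + EGT against Control, where it was 0, no filter gave 1 and DESeq2 gave 3. The cause was not tested. In PT cells 7 genes were called higher and 1 lower in AKI-CKD against Control, against 36 and 66 with no filter and 82 and 110 with DESeq2. In AKI-CKD + EGT against AKI-CKD these were 0 and 0, 187 and 44, and 291 and 134, and in AKI-CKD + EGT against Control 0 and 0, 11 and 41, and 25 and 72.

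With the replicate number as a block, 0 p53 targets and 0 of all genes were called in AKI-CKD against Control. Deviations of mice with the same number correlated from -0.44 to 0.33. The labels do not say whether such mice were handled together, and this was not tested.

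With all UMIs of each cell the share of PT cells with a Cdkn1a UMI was 1.83, 11.3 and 5.84% in Control, AKI-CKD and AKI-CKD + EGT, since deeper cells show more. With the expectation within mouse only, 94 genes in place of 46 were detected above it with Cdkn1a, and 7 of the 10 named genes were again among the 10 highest of those above 1 in all 9 mice. Levels in the other types moved by more than 1 SD for 32 of 39 group means when PT free RNA was taken off and the level rescaled to the other UMIs, for 8 of 39 without the rescaling, which was chosen after seeing the data, and for 3 to 8 of 39 under the other alternatives. In LOH cells that subtraction turned the difference between AKI-CKD + EGT and Control, to 34.2 against 56.6 CPM, or 15.9 against 20.5 CPM without the rescaling. In T cells the subtraction put the AKI-CKD mice below all Control mice, with the rescaling and, by a small margin, without it. T cells held few Cdkn1a UMIs and were themselves used to estimate the expected level. B cells and podocytes had few Cdkn1a UMIs in any mouse.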
